A study of Mus musculus with 2 samples.

Results

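The CCN genes encode secreted matricellular proteins, and 5 of them were followed here under the names the counts carry: *Cyr61*, *Ctgf*, *Nov*, *Wisp1* and *Wisp2*. They were taken by name from the 31053 genes measured by scRNA-Seq in fibro-adipogenic progenitors (FAPs), the interstitial mesenchymal cells of skeletal muscle. *Wisp3*, the other family member, was counted beside them. Every member was examined over all 8481 cells and in 3 classes of cells. A cell was called Dpp4-type when *Pi16*, *Sema3c*, *Anxa3* and *Efemp1* together made up at least 25 of every 10000 of its UMIs (unique molecular identifiers, 1 per captured transcript). A cell below that value was called Cxcl14-type when *Cxcl14* made up at least 5 of 10000, and all others were called remaining cells. None of these 5 genes belongs to the CCN family.

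The study compared mice lacking BAP1, a nuclear deubiquitinase, in limb mesenchyme with mice that carry the floxed allele without Cre. The library labelled *Bap1*WT (the WT-labelled library) came from *Bap1*f/f mice and the one labelled *Bap1*ΔMPC (the ΔMPC-labelled library) from Prx1-Cre;*Bap1*f/f mice, all 3 weeks old, of strain C57BL/6 (C57BL/6J in the methods) and carrying the floxed allele in both groups. Prx1-Cre acts in all limb mesenchyme, so bone, cartilage and tendon lineages carry the deletion besides FAPs. Limb muscle was digested, and live cells without CD45, CD31 and Vcam1 and with Sca1 on their surface were sorted. Each genotype was measured in 1 library, without replicates, and the number of animals behind a library was not given in the sources used here. All 95% intervals below are exact (Poisson for levels, Clopper-Pearson for shares, conditional binomial for ratios) and cover counting error only.

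Cells numbered 4103 in the WT-labelled library, where they gave 51015705 UMIs in total and 12232 at the median. The ΔMPC-labelled library gave 49540066 UMIs from 4378 cells, 11017.5 at the median. The libraries shared 5 cell barcodes. *Bap1* had 897 UMIs, or 17.6 CPM (counts per 1000000 UMIs), in the first and 1072 UMIs, or 21.6 CPM, in the second. The counts of the targeted gene were thus not lower in the ΔMPC-labelled library. Reads from the 3′ end do not show whether a transcript holds the deleted exons. The immune genes *Ptprc*, *Adgre1* and *Cd3e* and the muscle stem cell genes *Pax7*, *Myf5* and *Myod1* had no UMI in either library. The other 3 immune markers were counted at low levels, led by *Cd68* with 180 and 286 UMIs and *Lyz2* with 109 and 337 UMIs in the WT-labelled and ΔMPC-labelled libraries, and their list summed to 6.55 and 14.7 CPM. The muscle stem cell list summed to 43.0 and 28.6 CPM, led by *Vcam1* with 1916 and 1017 UMIs, and *Itga7* had 269 and 395 UMIs. The part of these cells in the CCN differences was not tested. All 7 FAP markers, *Pdgfra* and *Dcn* among them, were counted in both. They summed to 69780 and 45221 CPM, led by *Col3a1* at 31688 and 20255 CPM. Of the 7, 5 were lower in the ΔMPC-labelled library, as were 37.8% of all tested genes.

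CCN proteins join an insulin-like growth factor binding module, a von Willebrand type C module and a thrombospondin module, and most end in a cystine knot that *Wisp2* lacks. They bind integrins and heparan sulfate proteoglycans and hold growth factors in the matrix. *Cyr61* and *Ctgf* are textbook targets of the mechanosensitive factors YAP and TAZ, which act on DNA through TEAD proteins, and *Cyr61* is also an immediate early gene. *Ctgf* responds to TGF-β and marks fibrogenic connective tissue, *Nov* is often opposed to *Ctgf* in matrix production, and *Wisp1* and *Wisp2* were first described as genes induced by Wnt signalling.

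In the GRCm38 assembly *Cyr61* (now Ccn1) lies at chr3:145646976-145649981 on the minus strand and *Ctgf* (Ccn2) at chr10:24595442-24598683 on the plus strand. *Nov* (Ccn3) lies at chr15:54745702-54754039, *Wisp1* (Ccn4) at chr15:66891320-66923201 and *Wisp2* (Ccn5) at chr2:163820861-163833146, all on the plus strand. *Wisp3* (Ccn6) lies at chr10:39150970-39163794 on the minus strand. The 250 bases before the *Cyr61* start, read on the minus strand at chr3:145649986-145650235 (RefSeq, GRCm38.p6), are shown because this promoter is the usual example of a YAP and TEAD target and was the promoter of the 5 members that could be matched.
Cyr61: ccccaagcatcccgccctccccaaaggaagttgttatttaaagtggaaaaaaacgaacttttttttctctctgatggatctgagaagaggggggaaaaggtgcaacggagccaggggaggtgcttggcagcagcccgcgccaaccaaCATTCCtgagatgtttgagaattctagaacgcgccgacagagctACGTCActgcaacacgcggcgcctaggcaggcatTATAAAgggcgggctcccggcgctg
Capitals mark the TEAD core CATTCC at -103 from the start, the cAMP response half-site ACGTCA at -59 and the TATA box TATAAA at -25. Each was searched on both strands, and no match overlapped another. Of 32851 promoters of this length, 12.6% held the TEAD core, 6.47% the half-site and 12.4% the TATA letters. A match is a description of letters and not of binding.

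The classes carried their labelled markers. *Dpp4* stood at 298 CPM in Dpp4-type and 28.1 CPM in Cxcl14-type cells of the WT-labelled library, and at 268 and 9.59 CPM in the ΔMPC-labelled library. *Col15a1* showed the opposite order, with 155 and 1916 CPM in the first library and 216 and 1961 CPM in the second. The list of 7 further Cxcl14-type markers to which it belongs summed to 8114 and 5003 CPM in Cxcl14-type cells of the WT-labelled and ΔMPC-labelled libraries, with a median log2 ratio of -1.26, 6 of 7 below 0 and 2 over 3-fold lower. Of all tested genes in that class, 42.9% were below 0 and 1.72% over 3-fold lower. *Cxcl14* itself, which sets the class, went the other way, from 1446 to 2807 CPM. The part of these markers in the differences of the members was not tested. Dpp4-type cells numbered 1050 (25.6% of cells) and 1251 (28.6%) in the WT-labelled and ΔMPC-labelled libraries. Cxcl14-type cells numbered 569 (13.9%) and 1020 (23.3%), and remaining cells 2484 (60.5%) and 2107 (48.1%). Values over all cells therefore combine a different mix of classes in each library. Both classes are ranges of a continuous score, and 210 and 337 cells lay within 5 of the Dpp4-type cut.

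In the ΔMPC-labelled library all 5 members had lower levels over all cells, by amounts that ran from nearly nothing for *Cyr61* to 3.405-fold for *Wisp1*. A lower level over all cells was also found for 37.8% of all tested genes. The summed level of the 6 CCN genes was 831 CPM in the WT-labelled library and 611 CPM in the ΔMPC-labelled library. It went from 908 to 710 CPM in Dpp4-type cells, from 654 to 354 CPM in Cxcl14-type cells and from 835 to 672 CPM in remaining cells. The 8 adipocyte markers summed to 8.23 and 84.5 CPM over all cells. Their sum went from 3.33 to 14.3 CPM in Dpp4-type, 11.9 to 123 CPM in Cxcl14-type and 9.70 to 110 CPM in remaining cells, and 5 of 5 tested were over 3-fold higher in the last 2 classes, where 3.12% and 2.38% of all tested genes were. *Fabp4* led the list over all cells, at 4.84 and 47.5 CPM, and *Cidec* and *Lep* were at 0 in the WT-labelled library. Without the 3 and 52 cells with at least 2 of *Car3*, *Fabp4*, *Adipoq* and *Plin1*, an alternative chosen after the data were seen, the log2 ratio over all cells was -0.54 for *Ctgf*, -0.93 for *Nov* and -1.76 for *Wisp1*, against -0.56, -0.94 and -1.77 with them. The 6 cycling genes, led by *Mki67* and *Top2a*, summed to 40.8 and 76.5 CPM over all cells and to 27.9 and 59.4 CPM in Cxcl14-type cells, where 2 of 6 were over 3-fold higher. The 5 Schwann cell genes summed to 21.2 and 67.3 CPM over all cells and to 16.6 and 95.1 CPM in Cxcl14-type cells. Most of that sum was *S100b*, at 16.8 and 63.7 CPM over all cells, while *Sox10* had 9 UMIs in the WT-labelled library and none in the ΔMPC-labelled library. The immune list summed to 5.22 and 19.8 CPM in Cxcl14-type cells, where 2 of 3 tested were over 3-fold higher. The 6 mural cell genes summed to 41.8 and 20.7 CPM in Dpp4-type cells, where 2 of 4 tested were over 3-fold lower. The 8 cartilage and bone genes summed to 43.1 and 71.3 CPM over all cells, mostly *Sox9* at 31.9 and 59.2 CPM, with *Ibsp* at 0 in both libraries. Over all cells the endothelial list summed to 13.4 and 9.35 CPM and the erythroid list to 37.8 and 23.6 CPM. The part of these cell types in the CCN differences was not tested. All 5 members passed the filter on low counts in each class (a total of at least 20 UMIs over the libraries and a mean over 0.01 UMIs per 10000), and *Wisp3* did not. Members more than 3-fold lower were *Wisp1* over all cells, *Wisp1* and *Wisp2* in Dpp4-type cells and *Wisp1* in Cxcl14-type cells. The share of all tested genes past that fold in the same direction was 1.28% over all cells, 1.38% in Dpp4-type and 1.72% in Cxcl14-type cells. In remaining cells no member passed it, where 1.25% of tested genes did. Members more than 2-fold lower were *Wisp1* over all cells, *Wisp1* and *Wisp2* in Dpp4-type cells, *Ctgf*, *Nov* and *Wisp1* in Cxcl14-type cells and *Nov* and *Wisp1* in remaining cells. Of all tested genes, 3.52%, 3.99%, 4.69% and 3.65% were 2-fold lower in these groups of cells. The median log2 ratio of all tested genes was 0.10 over all cells, 0.07 in Dpp4-type, 0.07 in Cxcl14-type and 0.11 in remaining cells.

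**Figure D1:**
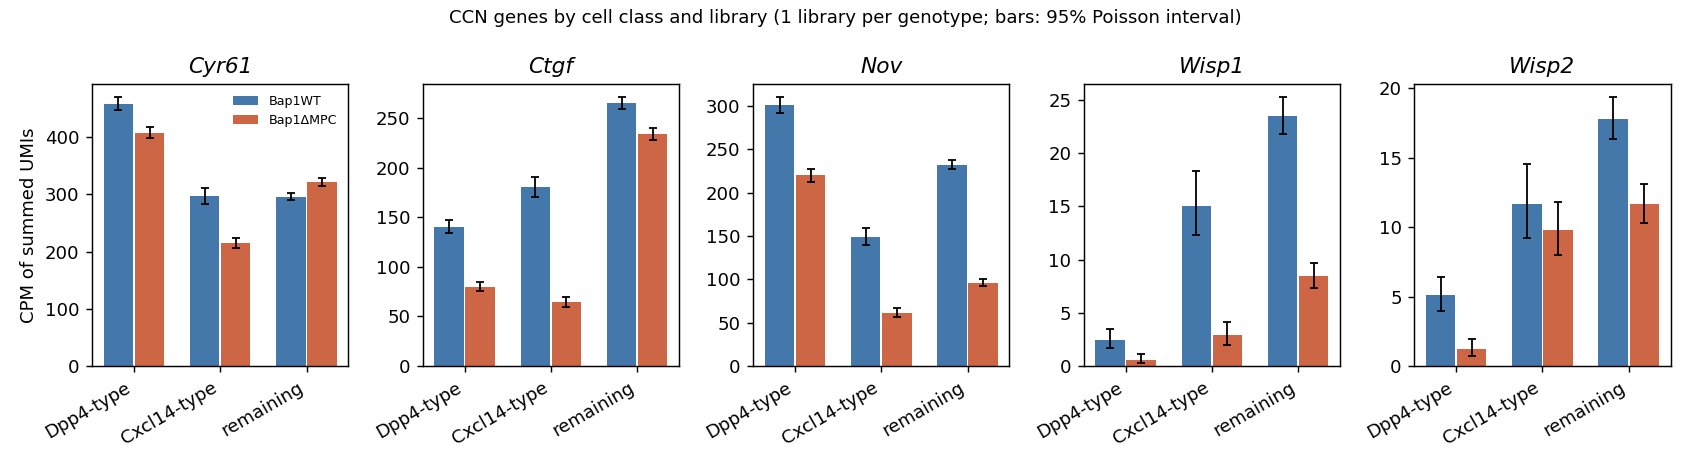
Level of each CCN gene (CPM of summed UMIs, own y axis per gene from 0) in Dpp4-type, Cxcl14-type and remaining cells of the WT-labelled (blue) and ΔMPC-labelled (orange) libraries, with exact 95% Poisson intervals. Nov and Wisp1 were lower in the orange library in all 3 classes, and Cyr61 went from 296 to 322 CPM in remaining cells.

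*Cyr61*, which encodes an adhesive ligand of integrins, was the member that differed least between the libraries over all cells. Its level over all cells was 341 CPM (interval 336 to 346) in the WT-labelled library and 323 CPM (318 to 328) in the ΔMPC-labelled library, a log2 ratio of -0.08. In Dpp4-type cells it was 459 and 408 CPM (log2 ratio -0.17, interval -0.22 to -0.12), and in Cxcl14-type cells 297 and 215 CPM (-0.47, interval -0.55 to -0.38). Both classes thus had less *Cyr61* in the ΔMPC-labelled library, but the size of the Cxcl14-type value rested on the cut. With no *Cxcl14* cut that log2 ratio was -0.043. Remaining cells had more, 296 against 322 CPM (0.12, interval 0.08 to 0.17), close to the median of all tested genes there, and the log2 ratio was 0.0048 after TMM scaling, which moves that median by -0.12. Within each library *Cyr61* was higher in Dpp4-type than in Cxcl14-type cells, 1.54-fold (interval 1.47 to 1.62) in the WT-labelled library and 1.90-fold (1.81 to 1.99) in the ΔMPC-labelled library. With cells thinned to 5000 UMIs, 56.9% and 49.95% of cells kept had a *Cyr61* UMI, against 72.3% and 62.6% of all cells before thinning. Here and below, cells with fewer than 5000 UMIs were left out of thinning. Of all cells, 3983 and 4168 were kept, so shares before thinning cover more cells.

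*Ctgf*, the connective tissue growth factor, was lower in every class of the ΔMPC-labelled library, and most so in Cxcl14-type cells. Over all cells it stood at 219 CPM (interval 215 to 224) and 149 CPM (146 to 153). In Cxcl14-type cells it went from 180 to 64.4 CPM, 2.80-fold lower (log2 ratio -1.48, interval -1.62 to -1.35), and 2.10% of tested genes had a lower ratio there. In Dpp4-type cells it went from 140 to 80.1 CPM (log2 ratio -0.81, interval -0.92 to -0.71). The gap in that class was widest near its cut. *Ctgf* was at 201 and 78.0 CPM for scores from 25 to 50. It was at 110 and 85.7 CPM from 50 to 100, and at 86.6 and 60.3 CPM for scores of 100 or more. Remaining cells, which held most of its UMIs, differed by much less, 265 against 233 CPM (-0.18, interval -0.23 to -0.13). The share of cells with a *Ctgf* UMI after thinning was 31.4% in the WT-labelled library and 17.5% in the ΔMPC-labelled library, and 43.5% and 24.3% before thinning.

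The order of *Ctgf* between the classes was not the same in the libraries and rested on where the classes were cut. Dpp4-type cells had 0.779 times the level of Cxcl14-type cells (interval 0.725 to 0.838) in the WT-labelled library and 1.24 times (1.13 to 1.37) in the ΔMPC-labelled library. With a Dpp4-type cut of 15 in place of 25 the first ratio became 0.12 on the log2 scale, and without any *Cxcl14* cut the second became -1.16. Without the cells of the *Hmcn1* subset described below the first was -0.06, and without those of the *Spon1* subset the second was 0.01. The library ratio of *Ctgf* in Cxcl14-type cells likewise moved from -1.48 to -0.48 on the log2 scale when all cells below the Dpp4-type cut were pooled.

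*Nov*, whose protein is a CCN ligand of integrins and Notch, was higher in Dpp4-type cells and lower in the ΔMPC-labelled library. Its level over all cells was 240 CPM (interval 236 to 245) in the WT-labelled library and 125 CPM (122 to 128) in the ΔMPC-labelled library, 1.92-fold lower. It went from 301 to 220 CPM in Dpp4-type cells (log2 ratio -0.45, interval -0.52 to -0.39). It went from 149 to 61.7 CPM in Cxcl14-type cells (-1.27, interval -1.42 to -1.13) and from 232 to 96.4 CPM in remaining cells (-1.27, interval -1.34 to -1.20). The gap between the libraries was thus wider outside the Dpp4-type class than in it. The excess of Dpp4-type over Cxcl14-type cells was 2.02-fold (interval 1.88 to 2.16) in the WT-labelled library and 3.56-fold (3.28 to 3.87) in the ΔMPC-labelled library. Over remaining cells it was smaller, 1.30-fold and 2.28-fold. With no *Cxcl14* cut the log2 ratios of 1.01 and 1.83 between the 2 classes became 0.47 and 1.37. After thinning, *Nov* was counted in 63.3% and 46.6% of Dpp4-type cells and in 38.3% and 18.6% of Cxcl14-type cells, and before thinning in 82.4%, 61.9%, 54.0% and 28.3%.

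**Figure D2:**
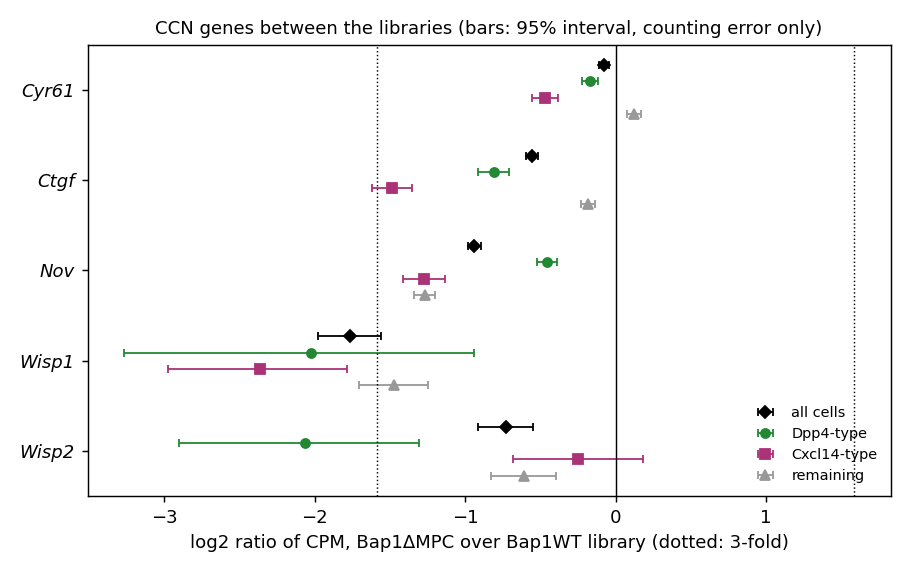
Log2 ratio of CPM, ΔMPC-labelled over WT-labelled library (x axis), for each CCN gene over all cells and in 3 classes, with 95% intervals for counting error only; dotted lines mark 3-fold. Only Cyr61 in remaining cells lay above 0, at 0.12, and the interval of Wisp2 in Cxcl14-type cells ran from -0.68 to 0.19.

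*Wisp1*, a secreted CCN protein linked to Wnt signalling and bone, was a low-count gene of cells outside the Dpp4-type class. It had 845 UMIs (16.6 CPM, interval 15.5 to 17.7) in the WT-labelled library and 241 UMIs (4.86 CPM, interval 4.27 to 5.52) in the ΔMPC-labelled library. In Cxcl14-type cells 15.1 CPM stood against 2.93 CPM, a log2 ratio of -2.36 (interval -2.98 to -1.78), and 0.506% of tested genes had a lower one. Remaining cells held most of its UMIs and had 23.5 and 8.46 CPM (-1.47, interval -1.71 to -1.24). In Dpp4-type cells there were 35 UMIs and 9 UMIs, 2.48 and 0.609 CPM, and the interval of their log2 ratio of -2.02 was wide, from -3.27 to -0.94. It became -1.38 with cells thinned to 5000 UMIs, which is less than 3-fold, and the ratio of -2.36 in Cxcl14-type cells became -1.72 with no *Cxcl14* cut. In both libraries Dpp4-type cells lay below Cxcl14-type cells, 6.08-fold in the WT-labelled library and 4.81-fold in the ΔMPC-labelled library. The size of this gap rested on the cuts, since the log2 ratios of -2.60 and -2.27 became -1.54 and -0.89 with a Dpp4-type cut of 15, and the second became -3.45 with no *Cxcl14* cut and -1.44 after thinning.

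*Wisp2*, the CCN protein without the cystine knot and a secreted product of mesenchymal and adipose precursors, had its largest ratio between the libraries, among the 3 classes, in Dpp4-type cells, where its counts were lowest. There 72 UMIs (5.10 CPM, interval 3.99 to 6.42) stood against 18 UMIs (1.22 CPM, interval 0.722 to 1.93), a log2 ratio of -2.07 (interval -2.90 to -1.30). Of those 18 UMIs, 9 came from 1 cell, and without the 5% of cells with the most UMIs in each library the log2 ratio was -3.07. Most of the 72 UMIs came from cells nearer the cut. Scores from 25 to 50 held 58 and 10 UMIs (11.04 and 1.30 CPM). Scores from 50 to 100 held 14 and 8 UMIs (2.01 and 1.30 CPM), with overlapping intervals, and higher scores held none. In Cxcl14-type cells the levels were 11.6 and 9.77 CPM, and their ratio was not distinguishable from 1 at this depth (log2 ratio -0.25, interval -0.68 to 0.19). Remaining cells held most *Wisp2* UMIs, 537 and 274, and had 17.8 and 11.7 CPM (-0.61, interval -0.83 to -0.40). Dpp4-type cells were 2.28-fold below Cxcl14-type cells in the WT-labelled library and 8.01-fold below them in the ΔMPC-labelled library. With a Dpp4-type cut of 15 these log2 ratios of -1.19 and -3.00 became -0.22 and -1.77, and with a cut of 40 the first became -2.28.

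The shares of cells with a *Wisp1* or *Wisp2* UMI are low enough to need a measure of free RNA, the transcripts of lysed cells that enter droplets. *Tnnt3*, a troponin of myofibers, which the sort should not contain, was counted in 13.5% and 10.1% of all cells in the WT-labelled and ΔMPC-labelled libraries. These shares are without thinning, at median depths of 12232 and 11017.5 UMIs. *Wisp1* was counted in 12.9% and 3.91% and *Wisp2* in 8.04% and 4.36%, at or below that share over all cells. In remaining cells *Wisp1* was counted in 17.1% and 6.41%, and *Tnnt3* in 12.5% and 9.82%. There *Wisp1* was thus above *Tnnt3* in the WT-labelled library and below it in the ΔMPC-labelled library. *Wisp2* was counted in 9.82% and 5.93% of remaining cells, below *Tnnt3* in both. *Wisp1* differed between classes at equal depth, with 1.08% of thinned Dpp4-type and 7.33% of thinned Cxcl14-type cells in the WT-labelled library (intervals 0.542% to 1.93% and 5.31% to 9.82%). The myofiber genes differed between these classes in the same direction, summing to 53.6 and 115 CPM in Dpp4-type and Cxcl14-type cells of that library, and *Mylpf* was counted in 10.0% and 17.4% of them. For the thinned shares of 0.416% in Dpp4-type and 1.02% in Cxcl14-type cells of the ΔMPC-labelled library the intervals overlapped. Between the libraries, the 8 myofiber genes summed to 115 and 44.9 CPM in Cxcl14-type cells, the same direction as *Wisp1* there. *Mylpf* among them stood at 33.0 and 11.9 CPM. In remaining cells, which held most *Wisp1* UMIs, they summed to 75.005 and 36.5 CPM, again in the direction of *Wisp1*. In Dpp4-type cells they summed to 53.6 and 52.8 CPM, nearly equal, while *Wisp1* was at 2.48 and 0.609 CPM. The part of free RNA in the *Wisp1* difference was not tested. *Wisp3* had 13 and 15 UMIs in all, too few to give a ratio.

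The members followed the score that defines Dpp4-type cells in different ways. *Cyr61* was higher at higher scores, from 279 CPM in cells with a score of 0 to 2 to 499 CPM in cells at 100 or more in the WT-labelled library, and from 268 to 412 CPM in the ΔMPC-labelled library. *Ctgf* was highest between 10 and 25, at 349 and 283 CPM, and lowest at 100 or more, at 86.6 and 60.3 CPM. The same bin held the highest *Ctgf* level in both libraries.

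*Nov* was lower in the ΔMPC-labelled library, with intervals that did not overlap, in every bin below 100. It stood at 164 CPM in the WT-labelled library and 72.9 CPM in the ΔMPC-labelled library for scores of 0 to 2. For scores from 10 to 25 it stood at 307 and 122 CPM, from 25 to 50 at 299 and 192 CPM, and from 50 to 100 at 304 and 246 CPM. At 100 or more (144 and 82 cells) it was 292 and 280 CPM, and the intervals overlapped, although 88.9% and 65.9% of these cells had a *Nov* UMI. *Wisp1* was lower in the bin past the cut, going from 17.8 CPM between 10 and 25 to 3.24 CPM between 25 and 50 in the WT-labelled library and from 4.88 to 0.778 CPM in the ΔMPC-labelled library. *Wisp2* went from 28.3 to 11.04 CPM and from 13.4 to 1.30 CPM over the same step. In the cells nearest the cut, from 20 to 25 and from 25 to 30, *Ctgf* was at 273 and 343 CPM in the WT-labelled library and at 147 and 81.1 CPM in the ΔMPC-labelled library. *Wisp2* did not drop at the cut itself, with 18.9 and 23.1 CPM (29 UMIs each) in the WT-labelled library and 4.15 and 4.22 CPM in the ΔMPC-labelled library.

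**Figure D3:**
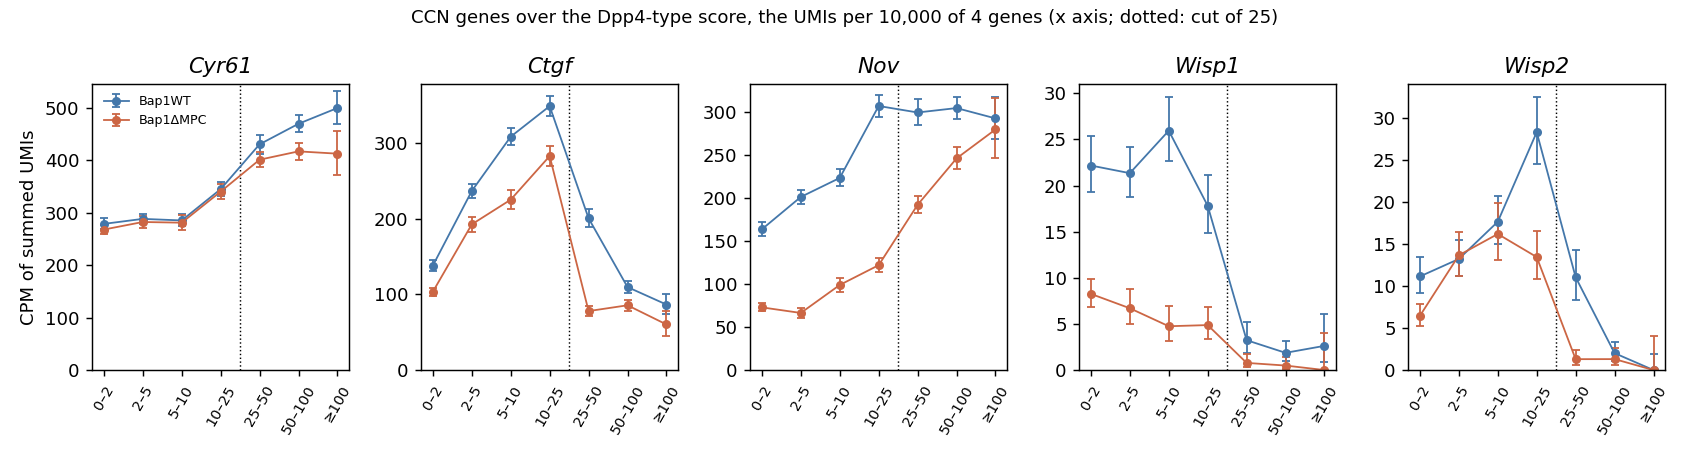
Level of each CCN gene (CPM of summed UMIs) in cells binned by the Dpp4-type score, the UMIs per 10000 of Pi16, Sema3c, Anxa3 and Efemp1 (x axis), in both libraries, with exact 95% Poisson intervals; the dotted line is the cut of 25. Ctgf peaked between 10 and 25, Cyr61 was higher at higher scores, and Nov stood at 292 and 280 CPM at 100 or more, with overlapping intervals.

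*Ctgf* was also the most unevenly spread of the members with many UMIs. The 5% of cells with the most *Ctgf* UMIs held 53.7% of them in the WT-labelled library and 75.5% in the ΔMPC-labelled library. The same share of cells held 28.7% and 31.6% of *Cyr61* UMIs and 32.9% and 41.8% of *Nov* UMIs. The largest *Ctgf* count in 1 cell was 109 in the WT-labelled library and 188 in the ΔMPC-labelled library. Cells with 10 or more *Ctgf* UMIs made up 7.46% and 4.02% of the libraries. Fewer cells thus carried *Ctgf* in the ΔMPC-labelled library, with 6.95 UMIs per carrying cell against 6.27, without thinning. Only remaining cells had more per carrying cell there, 8.78 against 6.89 UMIs. Dpp4-type cells had 4.64 against 4.87 and Cxcl14-type cells 3.92 against 5.57. Ranked by the *Ctgf* share of their UMIs, the top 5% of cells were mostly remaining cells, 78.6% and 70.3%. Their median depth, 13311.5 and 12315 UMIs, was above that of the libraries.

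**Figure D4:**
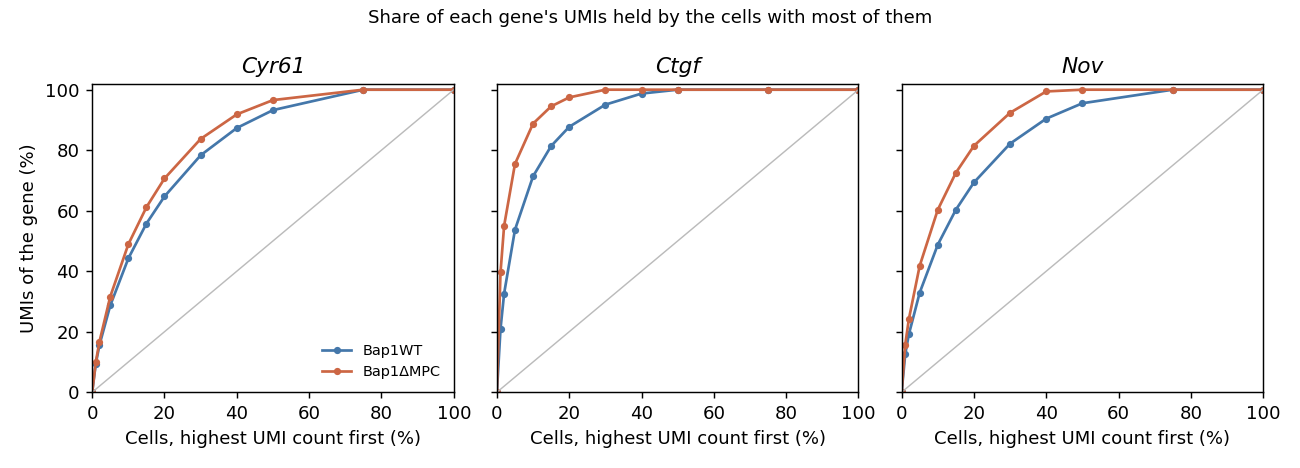
Cumulative percent of the UMIs of Cyr61, Ctgf and Nov (y axis) held by the cells with the highest counts of that gene (x axis, percent of cells), in both libraries; the grey line is an even spread. The Ctgf curve of the ΔMPC-labelled library lay highest, with 75.5% of UMIs in 5% of cells against 53.7%.

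Levels of *Ctgf*, *Nov* and *Wisp1* were also taken in subsets of cells set by other marker genes. A cell entered a subset with 3 or more UMIs of its genes and at least 2 of them detected. The subsets were chosen with differences between these libraries known, and their sizes follow genes that differ, so their sizes are not compared. Cells with *Hmcn1*, *Meox1* and *Etv4* (579 and 112 cells in the WT-labelled and ΔMPC-labelled libraries) had *Ctgf* at 380 and 415 CPM and *Wisp1* at 28.7 and 30.3 CPM. Neither differed beyond counting error (log2 ratios 0.13, interval -0.01 to 0.26, and 0.07, interval -0.45 to 0.57). *Nov* was lower in them, at 302 and 163 CPM.

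Tendon-like cells, with *Chad*, *Tnmd* and *Cilp2*, numbered 34 and 132 and had *Ctgf* at 377 CPM (interval 324 to 437) and 611 CPM (575 to 649). In the ΔMPC-labelled library this was the highest *Ctgf* level of the subsets plotted, and in the WT-labelled library it was close to that of the *Hmcn1* subset. The 8 tenocyte markers summed to 230 and 487 CPM over all cells, led by *Thbs4* at 146 and 330 CPM, and none was at 0. Their sum was 50.4 and 67.4 CPM in Dpp4-type, 208 and 346 CPM in Cxcl14-type and 319 and 817 CPM in remaining cells. In remaining cells 4 of 7 tested were over 3-fold higher, where 2.38% of all tested genes were. The part of these markers in the CCN differences was not tested. Without the tendon-like cells, an alternative chosen after the data were seen, the log2 ratio over all cells was -0.72 for *Ctgf* and -2.02 for *Wisp1*. For *Ctgf* and *Wisp1* the libraries were further apart without these cells than with them, and for *Nov* the value was -0.92 against -0.94. Leaving out other subsets, also chosen after the data were seen, brought the libraries closer for some members. Without the *Spon1* subset described next the log2 ratio over all cells was -0.40 for *Ctgf*, -0.76 for *Nov* and -0.01 for *Cyr61*, against -0.56, -0.94 and -0.08, and without the *Hmcn1* subset it was -0.44 for *Ctgf*, -0.89 for *Nov* and -0.16 for *Cyr61*. In Cxcl14-type cells the log2 ratio of *Ctgf* was then -1.20 and -1.24, and in remaining cells -0.04 and -0.08.

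In other subsets the libraries were further apart. Cells with *Spon1*, *Cldn2*, *Hsd11b2* and *Angpt4* (83 and 652) had *Nov* at 231 and 36.8 CPM, a log2 ratio of -2.65 (interval -2.90 to -2.40), and *Wisp2* at 29.5 and 9.08 CPM. Cxcl14-type cells with a UMI of *Wnt4*, *Pcsk2* or *Rtl4* (43 and 362) had *Ctgf* at 156 and 26.9 CPM. Dpp4-type cells with a UMI of *Krt7* or *Plet1* (34 and 281) had *Nov* at 609 and 210 CPM. All of these levels were lower in the ΔMPC-labelled library. Cells with *Fmo2*, *Angpt2* and *Stc1* (291 and 27) differed, with *Ctgf* at 195 and 413 CPM and *Wisp1* at 33.8 and 21.9 CPM, the latter within counting error (log2 ratio -0.63, interval -1.87 to 0.40). The 84 cells with *Lgr5*, *Pappa2* and *Kdr* of the WT-labelled library had *Nov* at 595 CPM and *Wisp2* at 59.5 CPM. The ΔMPC-labelled library held 6 such cells, too few for a comparison.

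**Figure D5:**
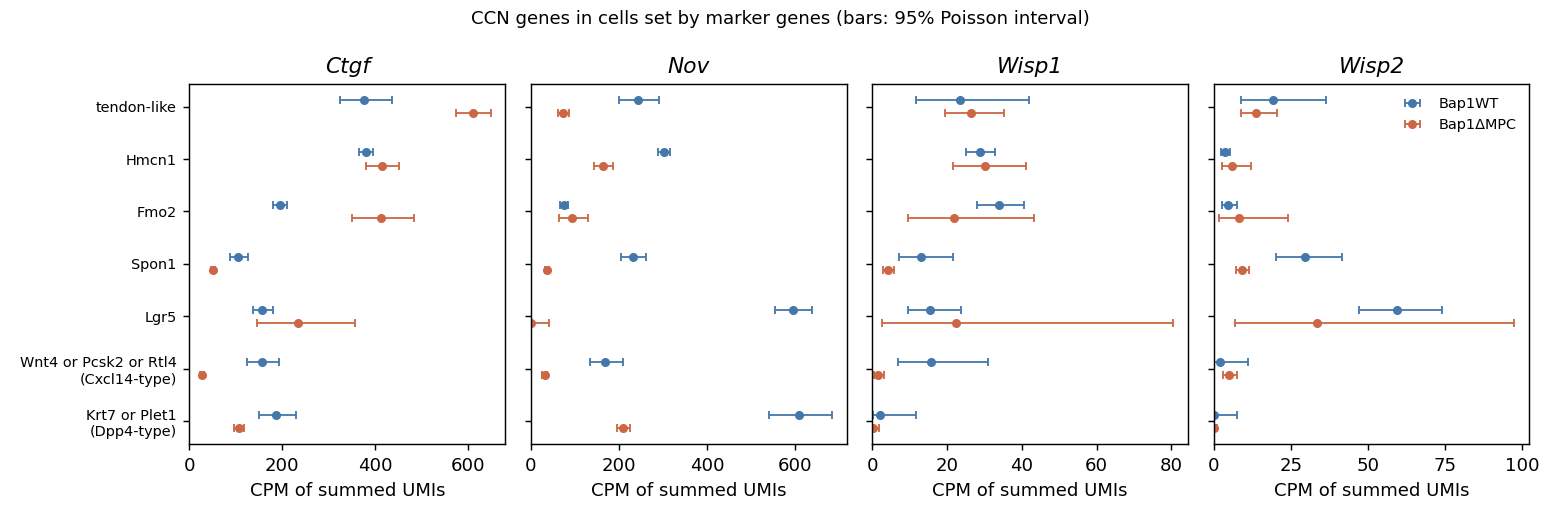
Level of Ctgf, Nov, Wisp1 and Wisp2 (x axes, CPM of summed UMIs, from 0) in subsets of cells set by marker genes (y axis), with exact 95% Poisson intervals, in both libraries. Ctgf was highest in the tendon-like cells of the ΔMPC-labelled library, at 611 CPM, and Nov in the Lgr5 and the Krt7 or Plet1 subsets of the WT-labelled library, at 595 and 609 CPM.

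Other genes of the pathways were described by counts and medians, with no test. Of 20 further YAP and TEAD targets, 19 could be tested in Dpp4-type and 18 in Cxcl14-type cells. None was over 3-fold lower and 1 was over 3-fold higher in each class, where 1.64% and 3.12% of all tested genes were over 3-fold higher, with median log2 ratios of 0.02 and 0.19. These were *Foxf2*, a forkhead transcription factor, with 4 and 28 UMIs in Dpp4-type cells, and *Dock5*, an activator of Rac, with 9 and 71 UMIs in Cxcl14-type cells, both named after their values were seen. The most abundant, *Axl*, a receptor tyrosine kinase, went from 727 to 943 CPM in Dpp4-type and from 253 to 341 CPM in Cxcl14-type cells. *Ccdc80*, a matrix protein, went from 520 to 268 CPM and from 621 to 704 CPM. The target *Ankrd1* had no UMI in these classes. Of the Hippo pathway itself 16 of 17 genes were tested, with 1 over 3-fold lower in Dpp4-type cells and none in Cxcl14-type cells, against 1.38% and 1.72% of all tested genes. That gene, *Amot*, a scaffold of the pathway that was also named after its values were seen, had 79 and 16 UMIs. *Wwtr1*, which encodes TAZ, went from 93.4 to 76.9 CPM in Dpp4-type and from 115 to 164 CPM in Cxcl14-type cells, and *Amotl1*, a scaffold that binds YAP, from 104 to 100.4 CPM and from 140 to 107 CPM.

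Immediate early genes, the class to which *Cyr61* also belongs, went both ways in Dpp4-type cells. Of 26 tested there 13 were below 0, against 41.4% of all tested genes, none passed 3-fold, against 3.02% of all tested genes, and the median log2 ratio was -0.01. In Cxcl14-type cells 2 were over 3-fold higher, against 3.12% of all tested genes, and none lower, with a median of 0.36 and 3 of 26 below 0, where 42.9% of all tested genes were. *Fos* went from 2488 to 2822 CPM in Dpp4-type and from 3357 to 4892 CPM in Cxcl14-type cells, *Jun* from 2431 to 2148 CPM and from 4238 to 4066 CPM, and *Nr4a2* rose from 32.5 to 109.8 CPM in Cxcl14-type cells and went from 14.3 to 36.9 CPM in Dpp4-type cells. The other gene past 3-fold, *Fosl1*, named after its values were seen, had 3 and 20 UMIs.

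Of 14 Wnt target genes 7 had enough UMIs. In Dpp4-type cells 2 were over 3-fold lower, against 1.38% of all tested genes, and none higher, with a median log2 ratio of -0.61 and 6 of 7 below 0, where 41.4% of all tested genes were. One was *Lgr5*, a receptor for R-spondins named after its values were seen, with 34 UMIs in the WT-labelled library and 1 in the ΔMPC-labelled library. The other was *Dkk2*, a secreted modulator of Wnt signalling, which fell from 73.9 to 21.9 CPM there and went from 83.1 to 100.98 CPM in Cxcl14-type cells. *Ccnd1*, which encodes cyclin D1, went from 40.1 to 35.1 CPM and from 36.9 to 51.2 CPM. In Cxcl14-type cells none of the 7 passed 3-fold, their median was 0.28 and 3 of 7 were below 0, against 42.9% of all tested genes.

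Of 17 genes that respond to TGF-β, 16 were tested in each class. *Tgfbi*, an adhesive matrix protein, fell from 176 to 42.5 CPM in Dpp4-type and from 530 to 59.4 CPM in Cxcl14-type cells. *Tagln*, an actin-binding protein, rose from 3.68 to 18.8 CPM and from 3.28 to 12.6 CPM, and these were the members past 3-fold. Of all tested genes, 3.02% passed it in either direction in Dpp4-type and 4.84% in Cxcl14-type cells. The fibrillar collagens *Col3a1* and *Col1a1* were lower in both classes, with log2 ratios of -0.59 and -0.97 in Dpp4-type and -0.86 and -1.13 in Cxcl14-type cells. The list medians were -0.31 and -0.42.

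Receptors and partners of CCN proteins were counted in the same way. None of the 13 receptor genes tested in Dpp4-type and 14 in Cxcl14-type cells passed 3-fold, where 3.02% and 4.84% of all tested genes did, so that a list of this length would hold few or none at that share. Their log2 ratios had medians of 0.29 and -0.08. *Lrp1*, an endocytic receptor, went from 596 to 835 CPM and from 764 to 870 CPM, and *Hspg2*, the proteoglycan perlecan, from 536 to 737 CPM and from 1291 to 1046 CPM. Among 12 growth factors and matrix proteins that CCN proteins bind, only *Bmp4*, a bone morphogenetic protein, passed 3-fold, in Cxcl14-type cells, where it fell from 284 to 79.1 CPM and 4.84% of all tested genes passed that fold. It went from 80.8 to 36.9 CPM in Dpp4-type cells. Past 2-fold in Cxcl14-type cells were also *Igf1*, insulin-like growth factor 1, from 1100 to 2440 CPM, and *Bmp7*, another bone morphogenetic protein, from 9.10 to 19.1 CPM, both named after their values were seen. These were 3 of 12, where 11.1% of all tested genes passed 2-fold in either direction. In Dpp4-type cells *Igf1* went from 484 to 529 CPM, and *Bmp7* went the other way than in Cxcl14-type cells, from 73.1 to 48.3 CPM. *Dcn*, the proteoglycan decorin, went from 10547 to 9235 CPM and from 19637 to 14432 CPM, and *Fn1*, fibronectin, from 4868 to 3414 CPM and from 924 to 681 CPM.

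Matricellular genes of other families moved both ways. Of 16 tested, 2 were over 3-fold lower and 3 higher in Dpp4-type cells, and 3 lower and 3 higher in Cxcl14-type cells, with medians of -0.11 and -0.07. Of all tested genes, 1.38% were lower and 1.64% higher in Dpp4-type cells, and 1.72% and 3.12% in Cxcl14-type cells. *Comp*, a cartilage and tendon matrix protein, rose from 5.97 to 134 CPM in Cxcl14-type cells, and *Smoc1*, a basement membrane protein, from 0.895 to 9.41 CPM. The third that was higher, *Tnc*, tenascin C, had 11 and 41 UMIs in Dpp4-type and 53 and 280 UMIs in Cxcl14-type cells. *Sparcl1*, a relative of SPARC, fell from 582 to 160 CPM there and from 61.2 to 20.3 CPM in Dpp4-type cells, and *Smoc2*, a marker of Cxcl14-type cells, from 2737 to 842 CPM in Cxcl14-type cells. *Tnc* and *Smoc2* were named after their values were seen. *Sparc* itself, a collagen-binding matrix protein, had log2 ratios of -0.61 and -0.91, and *Postn*, periostin, of -0.87 and -0.50.

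Over single cells the members were only weakly related to each other. In log-normalized counts the largest correlation between members was that of *Ctgf* with *Cyr61* in the ΔMPC-labelled library, 0.23 over 4378 cells, and it was 0.12 over 4103 cells in the WT-labelled library. *Ctgf* and *Wisp1* had values of 0.22 and 0.19 in the WT-labelled and ΔMPC-labelled libraries. Among 9479 genes those most like *Ctgf* were *Cilp* (0.35 and 0.34), *Col8a1* (0.32 and 0.46) and *Bgn* (0.30 and 0.29). Those most like *Nov* were *Tmsb4x*, *Cd55* and *Tppp3*, and those most like *Cyr61* were *Fstl1*, *Anxa3* and *Pamr1*, with *Anxa3* being part of the Dpp4-type score. *Wisp1* was closest to *Mgp*, *Actn1* and *Ctgf*, and *Wisp2* to *Eln*, *Lox* and *Gas6*. All points of a correlation share 1 library and its depth, and in counts this sparse such values are a description only. By profile over the 6 groups of library and class, the nearest genes were *Ssx2ip*, *Mcph1* and *Hsf2* for *Cyr61*, *Lrrc75a*, *Dhx58os* and *Ggta1* for *Ctgf*, and *Arhgap20*, *Hecw2* and *Pde5a* for *Nov*. They were *Fam180a*, *Tmem200a* and *Arfgef3* for *Wisp1* and *Fkbp1b*, *Mgst3* and *Prrt1* for *Wisp2*.

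Thinning to 5000 UMIs kept 3983 and 4168 cells in the WT-labelled and ΔMPC-labelled libraries. Of these, 10.1% and 3.38% had UMIs of *Cyr61*, *Ctgf* and *Nov* together. Cells with none of these genes made up 17.9% and 33.4% of them.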

How the data were processed

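Single-cell libraries were made with the 10x Genomics 3′ v3.1 kit, and the authors aligned them to mm10 with Cell Ranger 3.1.0 and filtered cells, doublets and non-FAPs in Seurat 3.2.1 (R 3.6.1). The thresholds of these filters are not given in the sources used here. The deposited files hold counts of UMIs as whole numbers, not normalized, in which cells had 1501 to 4998 detected genes and under 5% mitochondrial UMIs. No further cell was removed and no doublet caller was run, since the methods state that doublets had been gated out.

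Counts were summed over the cells of each class and library and scaled to CPM of that sum. UMIs from the 3′ end stand for 1 transcript each and were not divided by length. The most abundant or leading gene of a list is the one with the most UMIs. A count of 0 entered ratios as 3 counts. With 1 library per genotype no test was run and no p-value is given. Genes were called by a fold of 3, taken from the methods, among genes with 20 or more UMIs in the class and a mean over 0.01 UMIs per 10000 in all cells, with a fold of 2 as an alternative. Other cuts, per-cell means, depth, thinning and TMM factors (edgeR 4.0.16 in R 4.3.3, used for scaling only) were tried. Thinning left out cells with fewer than 5000 UMIs. The CCN genes, the lists, the subsets and the rule for named genes were chosen with earlier results of these data known. That rule names the CCN genes, the list members past 3-fold with 100 or more UMIs (up to 4 per list), the 2 most abundant of each list and the 3 nearest genes of each member. Python 3.11.15 and scipy 1.17.1 were used. Gene positions came from GENCODE, and the promoter from RefSeq.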

Additional observations from a re-analysis of the deposited data

Results flagged for a closer look

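*Cyr61* and *Ctgf* gave values with opposite signs in different groups of cells, and in neither case was the difference tested, since each library is 1 sample. The log2 ratio of *Cyr61* between the libraries was -0.17 in Dpp4-type and -0.47 in Cxcl14-type cells and 0.12 in remaining cells. The last value lay close to the median of all tested genes there, 0.11, and became 0.0048 with TMM scaling, 0.067 with a *Cxcl14* cut of 10 and 0.024 without the *Hmcn1* subset. The Cxcl14-type value became -0.043 with no *Cxcl14* cut. The log2 ratio of *Ctgf* between Dpp4-type and Cxcl14-type cells was -0.36 in the WT-labelled library and 0.32 in the ΔMPC-labelled library, and both signs depended on the cuts that set the classes.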

How the results depend on the processing

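No paired analysis was possible because there was 1 library per genotype. For the same reason no replicate could be left out, and depth limits mainly *Wisp1* and *Wisp2* in Dpp4-type cells. Of the log2 ratios of the members under other settings, 329 lay within the interval of the reported value, 83 lay outside it, and 3 changed sign, all of them *Ctgf* between the classes. Of the counts of genes past the fold, 37 stayed within 1.5 times the reported count and 19 did not. The cause of a moved value was not tested. Between the libraries, log2 ratios were as follows. Taken as a mean over cells of UMIs per 10000, they were -0.68 for *Ctgf* over all cells, -0.53 for *Nov* in Dpp4-type cells, and -0.33 for *Ctgf* and -1.15 for *Nov* in remaining cells. Without the 5% of cells with the most UMIs they were -0.75 for *Ctgf* and -2.04 for *Wisp1* over all cells, -0.54 for *Nov* and -3.07 for *Wisp2* in Dpp4-type cells, and -0.40 for *Ctgf* and -1.74 for *Wisp1* in remaining cells. With cells thinned to 5000 UMIs they were -0.65 for *Ctgf* over all cells, -0.55 for *Nov* in Dpp4-type cells, and -0.31 for *Ctgf* and -1.18 for *Nov* in remaining cells. With TMM scaling they were -0.18 for *Cyr61*, -0.65 for *Ctgf* and -1.04 for *Nov* over all cells, -0.24 for *Cyr61* and -0.53 for *Nov* in Dpp4-type cells, and 0.0048 for *Cyr61*, -0.30 for *Ctgf* and -1.39 for *Nov* in remaining cells. Without tendon-like cells, chosen after seeing the data, they were -0.72 for *Ctgf* and -2.02 for *Wisp1* over all cells and -0.38 and -1.71 in remaining cells. Other subsets were left out in turn, again chosen after seeing the data. Without the *Spon1* subset the values were -0.011 for *Cyr61*, -0.40 for *Ctgf* and -0.76 for *Nov* over all cells, -1.20 for *Ctgf* and -0.92 for *Nov* in Cxcl14-type cells, and -0.045 for *Ctgf* and -1.12 for *Nov* in remaining cells. Without the *Hmcn1* subset they were -0.16 for *Cyr61*, -0.44 for *Ctgf* and -0.89 for *Nov* over all cells, -1.24 for *Ctgf* and -1.12 for *Nov* in Cxcl14-type cells, and 0.024 for *Cyr61*, -0.082 for *Ctgf*, -1.18 for *Nov* and -0.86 for *Wisp2* in remaining cells. Without the *Fmo2* subset *Nov* was -1.01 over all cells and -1.38 in remaining cells, where *Ctgf* was -0.24. Without the *Lgr5* subset *Nov* was -0.88 over all cells and -1.15 in remaining cells. Leaving out the cells of shared barcodes or the adipocyte-type cells, also chosen after seeing the data, moved none of them beyond its interval. With a Dpp4-type cut of 15 they were -0.70 for *Ctgf* and -0.62 for *Nov* in Dpp4-type and -1.32 for *Ctgf* in Cxcl14-type cells. With a cut of 40 they were -0.22 for *Cyr61*, -0.43 for *Ctgf* and -0.32 for *Nov* in Dpp4-type cells, and -0.37 for *Ctgf* and -1.08 for *Nov* in remaining cells. With a *Cxcl14* cut of 10 they were -1.15 for *Ctgf* in Cxcl14-type cells, and 0.067 for *Cyr61* and -0.28 for *Ctgf* in remaining cells. With no *Cxcl14* cut they were -0.043 for *Cyr61*, -0.48 for *Ctgf* and -1.72 for *Wisp1* in Cxcl14-type cells. Between Dpp4-type and Cxcl14-type cells, a cut of 15 gave 0.53 for *Cyr61*, 0.12 for *Ctgf*, -1.54 for *Wisp1* and -0.22 for *Wisp2* in the WT-labelled library, and 0.74 for *Ctgf*, 1.69 for *Nov*, -0.89 for *Wisp1* and -1.77 for *Wisp2* in the ΔMPC-labelled library. A cut of 40 gave -0.72 for *Ctgf* and -2.28 for *Wisp2* in the WT-labelled library. A *Cxcl14* cut of 10 gave 0.15 for *Ctgf* and 1.17 for *Nov* in the WT-labelled library and 0.48 for *Ctgf* in the ΔMPC-labelled library. No *Cxcl14* cut gave -0.83 for *Ctgf*, 0.47 for *Nov* and -1.71 for *Wisp2* in the WT-labelled library, and 0.51 for *Cyr61*, -1.16 for *Ctgf* and 1.37 for *Nov* in the ΔMPC-labelled library. Without the *Hmcn1* subset *Ctgf* was -0.061 and *Nov* 1.24 in the WT-labelled library, and without the *Spon1* subset *Ctgf* was 0.011 and *Nov* 1.44 in the ΔMPC-labelled library. There the mean over cells gave 1.68 and thinning 1.64 for *Nov*. Genes past the fold numbered 364 in Dpp4-type and 584 in Cxcl14-type cells, 167 and 232 with 100 or more UMIs, and 945 and 1335 with a fold of 2. With 100 or more UMIs, list members past 3-fold were 0 YAP and TEAD targets in each class, 0 Hippo, 1 Wnt and 3 matricellular genes in Dpp4-type cells, and 1 immediate early gene in Cxcl14-type cells. With a fold of 2 they were 2 YAP and TEAD targets in each class, 1 immediate early gene and 1 bound factor in Dpp4-type cells, and 1 Hippo, 2 Wnt, 4 TGF-β, 1 receptor and 3 bound factor genes in Cxcl14-type cells.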
